A study of Mus musculus with 30 samples.

Results

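The deposited expression table carries, beside its gene rows, rows for piRNA precursor loci. These were chosen by their identifiers, which begin with pi-: 100 are named by chromosome and cytogenetic band (pi-17-qC-935 lies in band qC of chromosome 17) and 5 after a gene. They are all such rows among the 65534 of the table, the others being 38906 Ensembl genes and 26523 NONCODE noncoding genes. The number that ends each identifier is not defined in the sources used here, and the loci have no coordinates there, so their position is known only to the band. They fall on 18 chromosomes and 53 bands, with 11 loci on chromosome 10 and 10 on chromosome 7. None lies on X or Y, and 28 bands hold 2 or more loci, 75 loci in all.

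PIWI-interacting RNAs (piRNAs) are short germline RNAs bound by PIWI proteins. In the mouse testis the long single-stranded transcripts from which they are cut are made from dedicated loci, and those of the pachytene class are switched on as spermatocytes enter the pachytene stage of meiosis, under the transcription factor A-MYB (gene Mybl1) and the proteins encoded by Tcfl5 and Btbd18. The precursors are then cut by a mitochondrial surface machinery that includes the nuclease Pld6 and the helicase Mov10l1, and the products are loaded onto MIWI (Piwil1) or MILI (Piwil2). The rows analysed here measure polyadenylated precursor RNA and not the small RNAs, and the table does not say which loci are of which class.

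Germ cells were enriched from testes of male mice at 8, 12 and 16 days postpartum (dpp) by digesting the tubules and washing away interstitial cells, and polyadenylated RNA was sequenced. The mice were C57BL/6J with less than 10% 129S1/SvImJ background and came from lines with a mutant allele of Prdm9, which encodes a histone methyltransferase that marks sites of meiotic recombination. At each age 5 homozygous mutants (-/-) were set against 5 non-mutants, of which 3 were +/+ and 2 +/- at 8 dpp, 1 +/+ and 4 +/- at 12 dpp, and 2 +/+ and 3 +/- at 16 dpp. The 30 libraries came from 14 litters named in the table's header, and the question was how far gene expression of spermatocytes proceeds when meiosis is impaired.

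Values are in TPM, a unit of relative transcript abundance that scales each row by its length and each library to a fixed total. The total over the rows used was 960528 to 967717 TPM per library, and the read depth is unknown. Prdm9 itself was lower in mutants at 16 dpp but not at 8 dpp. It was 19.7 to 34.4 TPM in the 16 dpp non-mutants and 6.89 to 12.8 TPM in the 16 dpp mutants. At 8 dpp it was 1.82 to 6.10 TPM in non-mutants and 4.77 to 8.98 TPM in mutants, with 4 of 5 mutants above every non-mutant, so at that age its level lends the labels no check. At 12 dpp 1 litter went against its labels: in litter 13 the library labelled +/- had 9.16 TPM of Prdm9 and the library labelled -/- had 19.2 TPM, while the other libraries labelled non-mutant had 16.0 to 23.3 TPM and the others labelled mutant 6.34 to 8.16 TPM. The limma tests below of age steps, and of mutants against pooled non-mutants, were rerun without that litter. The sums and their fold changes, the medians, the detection counts and the counts of separated loci at 12 dpp include it. All 8 Sertoli cell markers of a fixed list (among them Sox9, Amh and Wt1) were measured, and their summed level was 3755 to 7112 TPM over the 30 libraries, so RNA with somatic markers was present in the samples labelled as enriched germ cells. At 16 dpp 0 of those 8 markers were called between the genotypes, where the sums were 5449 to 5952 TPM in non-mutants and 5454 to 6473 TPM in mutants.

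In non-mutants the loci were near the lower end of the scale at 8 and 12 dpp and were much higher at 16 dpp. The median of all locus means was 0.010 TPM at 8 dpp, 0.014 TPM at 12 dpp and 0.48 TPM at 16 dpp. In 16 dpp mutants that median was 0.012 TPM. The number of loci with a group mean of at least 0.5 TPM went from 4 at 8 dpp and 6 at 12 dpp to 52 at 16 dpp in non-mutants, and from 5 and 6 to 13 in mutants. Detection in every library of the group showed the same order, with 32, 38 and 77 loci in non-mutants and 31, 32 and 42 in mutants. Over all 30 libraries, 97 loci were above 0 at least once and 8 were listed at 0 throughout, which were pi-1-qE2.3-2, pi-1-qE3-706, pi-13-qA5-967, pi-14-qA3-2286, pi-15-qD1-4001, pi-5-qG2-2301, pi-5-qG2-950 and pi-7-qD1-654.

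**Figure D1:**
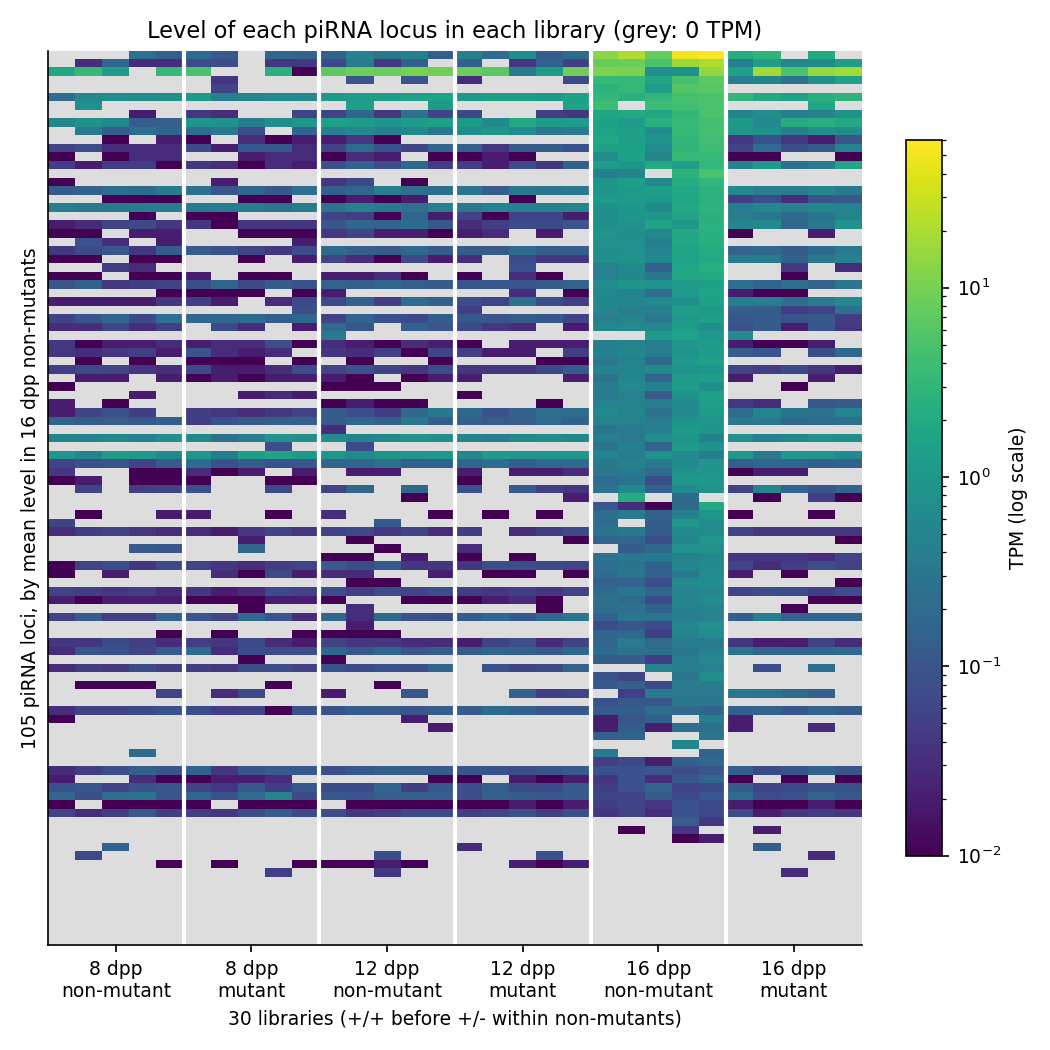
Level of each piRNA precursor locus (rows, ordered by their mean in 16 dpp non-mutants) in each of the 30 libraries (columns, grouped by age and genotype), coloured on a log scale of TPM, with grey for 0 TPM. The block of 5 non-mutant libraries at 16 dpp stands out, with 52 loci at a mean of 0.5 TPM or more against 13 in the 16 dpp mutants.

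The summed level of all loci shows the same step. It was 7.64 ± 1.59 TPM (SD, n = 5) in 8 dpp non-mutants and 7.78 ± 3.10 TPM (SD, n = 5) in 8 dpp mutants. At 12 dpp it was 18.5 ± 2.05 TPM (SD, n = 5) in non-mutants and 14.1 ± 4.22 TPM (SD, n = 5) in mutants, with overlapping ranges of 15.8 to 20.7 and 9.29 to 19.8 TPM. At 16 dpp the sum was 80.5 and 89.5 TPM in the +/+ libraries, 56.1, 171 and 225 TPM in the +/- libraries, and 19.7, 36.8, 16.9, 35.5 and 37.7 TPM in the -/- libraries. The non-mutant libraries thus spread widely at 16 dpp, and the lowest of them was still above the highest mutant. From 12 to 16 dpp the mean sum went up 6.73-fold in non-mutants and 2.08-fold in mutants. The sum is led by few loci: pi-17-qC-935 made up 24.3% of the mean sum of 16 dpp non-mutants, the 3 highest loci 39.7%, and all loci with a mean under 1 TPM 20.6%. At 16 dpp, without the highest locus of each library, sums were 48.5 to 168 TPM in non-mutants and 11.7 to 19.7 TPM in mutants. That gap is wider than in the full sums, but the locus removed differed between the groups. It was pi-17-qC-935 in every 16 dpp non-mutant and another locus in every 16 dpp mutant. Without pi-17-qC-935 in any library the ranges were 48.5 to 168 TPM in non-mutants and 16.9 to 37.7 TPM in mutants. This gap is narrower than in the full sums, still with no overlap.

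**Figure D2:**
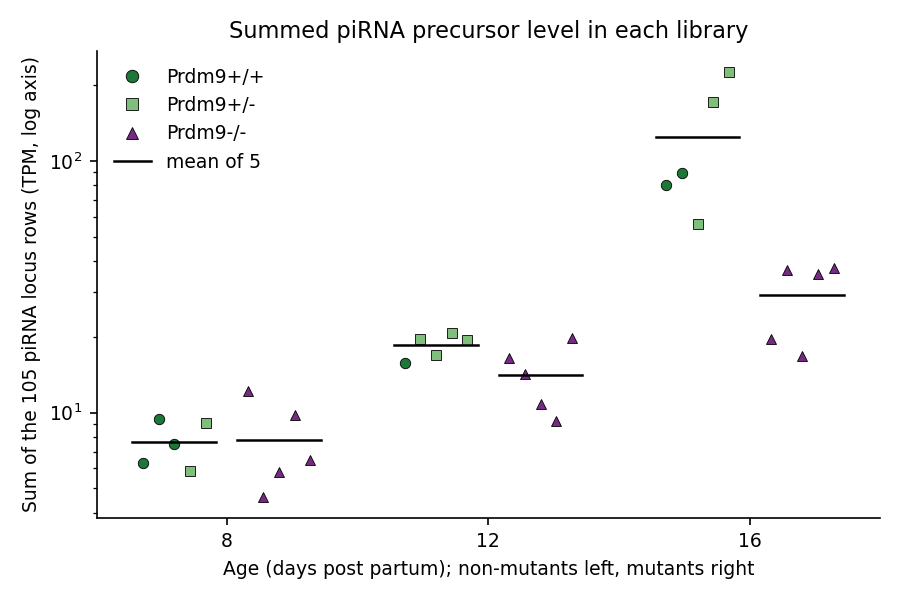
Summed level of all piRNA precursor loci in TPM (vertical axis) for each library at 8, 12 and 16 dpp, non-mutants to the left and mutants to the right at each age, with circles for +/+, squares for +/- and triangles for -/- and bars for the mean of 5 libraries. At 16 dpp the non-mutant libraries lie between 56.1 and 225 TPM and the mutant libraries between 16.9 and 37.7 TPM.

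The level within the 16 dpp non-mutants varied from library to library in much the same way over the loci. Of 93 loci above 0 in at least 1 of these 5 libraries, 68 were highest in +/- replicate 3 and 16 in +/- replicate 2. Of the 52 loci with a mean of at least 0.5 TPM, 34 were lowest in +/- replicate 1. The lactate dehydrogenase gene Ldhc, a marker of pachytene spermatocytes, was 156 and 174 TPM in the +/+ libraries and 42.0, 464 and 602 TPM in the +/- libraries, and it put these libraries in the same order as the summed piRNA loci did. In 16 dpp mutants Ldhc was 3.2 to 6.09 TPM. In such bulk samples fewer pachytene cells and less RNA per cell cannot be told apart.

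Locus by locus, the 16 dpp genotype groups were separated at most of the loci that were expressed. At 58 loci every non-mutant library was above every mutant library, which held for 1.16% of all rows of the table, and at no locus was every mutant library above every non-mutant library (0.758% of all rows). The mean was higher in non-mutants at 87 loci, equal at 10 and higher in mutants at 8. Each 16 dpp mutant had a non-mutant litter mate, and at 63 loci the mutant was below its litter mate in all 5 litters (2.62% of all rows). Without the 2 +/- libraries of highest sum 58 loci were separated (1.38% of all rows), and both +/+ libraries lay above all 5 mutants at 62 loci (2.40% of all rows), counts that leaving out non-mutants could not lower. Of the 28 loci with a non-mutant mean of at least 1 TPM 20 were separated, and of the 53 loci with a mean under 0.5 TPM, too low for the filter of the test below, 20 were. For these counts by level no share over all rows of like level was computed. The level was taken in the non-mutants, where the loci are high, which favours separation at the higher level.

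**Figure D3:**
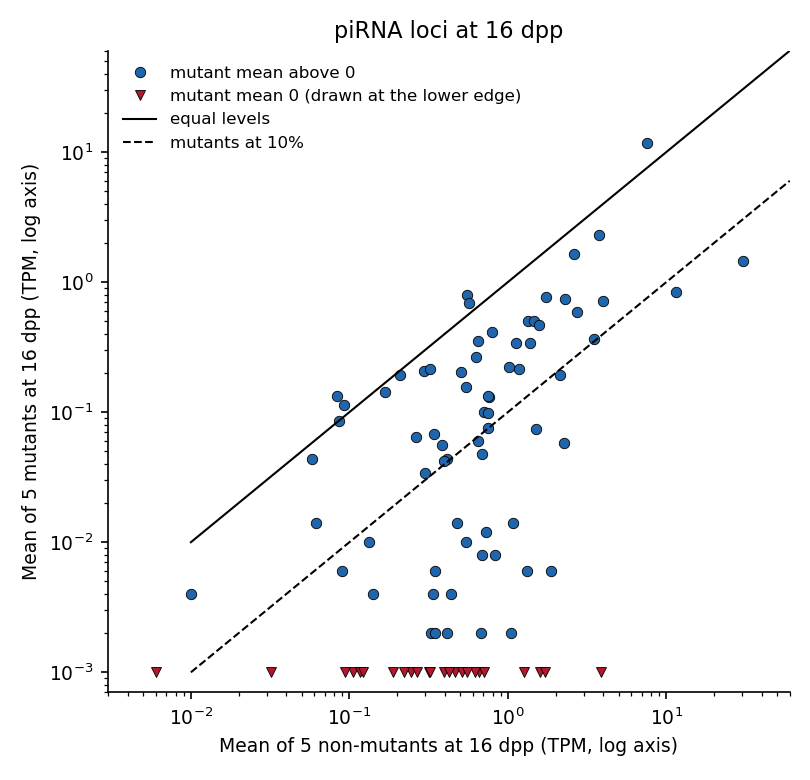
Mean level at 16 dpp of each piRNA precursor locus in mutants (vertical axis, TPM, log scale) against non-mutants (horizontal axis, TPM, log scale), with lines for equal levels and for a mutant level of 10% of the non-mutant level. Loci at 0 in mutants are drawn at the lower edge and loci at 0 in non-mutants are left out. Most loci lie below the line of equality, and pi-15-qE1-3710, pi-2-qE5-4 and pi-Mcart1 lie above it.

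Differences were tested with limma on log2(TPM + 1) over all 6 groups of libraries, with p-values adjusted over all rows tested. A fold change on this scale understates the change of low rows. Only 13 loci passed a filter of more than 1 TPM in at least 5 libraries and 92 did not, so loci are counted in the fit without a filter, in which 97 could be tested. In it 67 of the 97 loci fell at 16 dpp in mutants and 0 rose at a limma adjusted p under 0.05, where 2.16% of all rows fell. The median log2 difference, mutant minus non-mutant, was -0.42 over these 97 loci and 0.01 over all rows. This fit lends the 16 dpp non-mutants the smaller spread of the younger groups. In limma on the 16 dpp libraries alone 10 of 96 loci fell (0.252% of all rows), and with litter as a fixed block at that age 0 did (0.0% of all rows; 1 of 42461 rows was called and 5990 had an unadjusted p under 0.05). With litter as a random effect 69 loci fell (2.51% of all rows), without the 2 +/- libraries of highest sum 62 of 94 (1.32%), and against the +/+ libraries alone 25 (0.522%).

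The 3 loci of highest level in 16 dpp non-mutants other than pi-15-qE1-3710 show the pattern most plainly. pi-17-qC-935 was 13.2 and 21.1 TPM in the +/+ libraries, 7.61, 51.8 and 57.6 TPM in the +/- libraries, and 2.21, 3.01, 0, 2.07 and 0 TPM in the mutants. At 12 dpp it had been 0.14 to 0.48 TPM in non-mutants and 0.13 to 0.74 TPM in mutants, so nearly all of its signal appeared after that age. The groups at 16 dpp did not overlap, the mutant mean was 4.82% of the non-mutant mean, and the log2 difference was -3.54 (SE 0.38, limma adjusted p = 1.77e-07). pi-8-qC5-8200 was 7.76 and 8.28 TPM in the +/+, 5.10, 16.3 and 20.3 TPM in the +/- and 0.43, 1.23, 0.58, 0.68 and 1.25 TPM in the -/- libraries. Its lowest non-mutant was well above its highest mutant, and the log2 difference was -2.65 (SE 0.21, limma adjusted p = 9.51e-10). pi-11-qE1-3997 was 3.36 and 3.33 TPM in the +/+, 1.66, 4.76 and 6.91 TPM in the +/- and 0.43, 0.55, 0.26, 0.79 and 1.52 TPM in the -/- libraries. Here the groups came close, and the log2 difference was -1.50 (SE 0.19, limma adjusted p = 1.64e-06). All 3 needed the 16 dpp non-mutants to reach 5 libraries above 1 TPM, the filter of these tests. In limma without that filter on the 16 dpp libraries alone, their adjusted p were 0.0513, 0.0166 and 0.0781, in the order given.

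Several loci were present in every 16 dpp non-mutant and at or near 0 in every mutant. pi-2-qF1-2536 was 2.75 and 3.32 TPM in the +/+ libraries and 1.26, 5.83 and 6.19 TPM in the +/- libraries. It was listed at 0 in all 5 mutants of that age and in all 12 dpp libraries, and among the 8 dpp libraries it was above 0 in 1 mutant, at 0.06 TPM. On the test's scale it differed by -2.16 in the fit without a filter (SE 0.17, limma adjusted p = 4.66e-09). This locus, pi-1700016M24Rik and pi-4-qB3-277 exceeded 1 TPM only in the 5 non-mutants of 16 dpp and so passed the filter through that group alone, and for these 3 the values at 16 dpp are from the fit without it. pi-7-qD2-11976 was likewise 0.60 to 3.02 TPM in non-mutants and listed at 0 in all mutants of 16 dpp, pi-14-qA3-3095 was 0.53 to 3.37 against 0 to 0.01 TPM, and pi-11-qE1-9443 was 0.57 to 2.47 against 0 to 0.02 TPM. At lower levels pi-5-qG3-23659 (0.38 to 1.18 against 0 to 0.01 TPM) and pi-15-qD1-17920 (0.16 to 0.52 against 0 to 0.01 TPM) did the same. These 5 fell in the fit without a filter, with limma adjusted p from 8.15e-08 for pi-5-qG3-23659 to 1.42e-05 for pi-14-qA3-3095, and of them only pi-5-qG3-23659 was called in that fit on the 16 dpp libraries alone. Of the 77 loci above 0 in all 5 non-mutants of 16 dpp, 15 were listed at 0 in all 5 mutants, as were 0.347% of all rows above 0 in those non-mutants.

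A second group kept a low but measurable level in the mutants. pi-1700016M24Rik was 1.13 and 1.08 TPM in the +/+, 1.03, 1.64 and 2.64 TPM in the +/- and 0.05, 0.08, 0.03, 0.10 and 0.11 TPM in the -/- libraries, which is 4.92% of the non-mutant mean. Its log2 difference without the filter was -1.18 (SE 0.09, limma adjusted p = 2.29e-09). pi-7-qB5-6255 was 1.81 and 1.32 TPM in the +/+, 0.93, 3.06 and 4.23 TPM in the +/- and 0.02 to 0.10 TPM in the -/- libraries, and it too lay well clear of the mutants. The least variable of the separated loci was pi-10-qC1-12816, at 0.50, 0.51, 0.64, 0.86 and 0.94 TPM in non-mutants against 0.02 to 0.07 TPM in mutants, with a log2 difference of -0.68 (SE 0.05, limma adjusted p = 7.81e-10). The 2 loci of chromosome 9 band qC were both separated: pi-9-qC-31469 was 0.27 to 0.58 against 0.03 to 0.06 TPM and pi-9-qC-10667 0.67 to 1.47 against 0.16 to 0.31 TPM. pi-6-qC3-6258 (0.57 to 1.21 against 0.02 to 0.13 TPM) and pi-17-qE1.1-7037 (0.19 to 0.39 against 0.02 to 0.06 TPM) were also separated. These last 5 loci, pi-7-qB5-6255, pi-5-qG3-23659, pi-1700016M24Rik, pi-2-qF1-2536 and pi-8-qC5-8200 are the 10 that were called on the 16 dpp libraries alone in the fit without a filter.

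**Figure D4:**
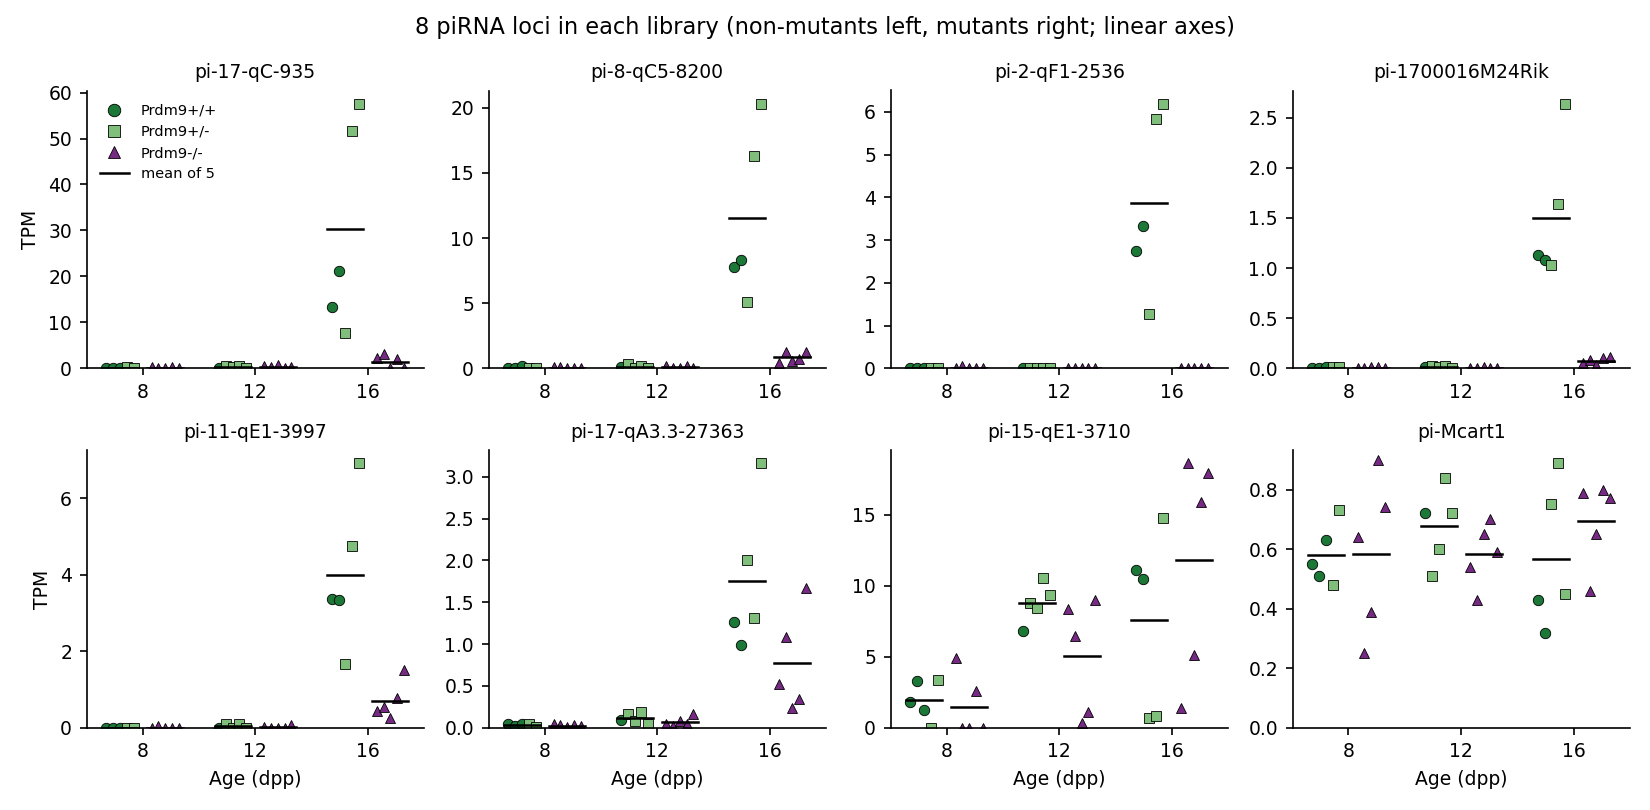
Level in TPM (linear vertical axes, which differ between panels) of 8 piRNA precursor loci in each library at 8, 12 and 16 dpp, non-mutants to the left and mutants to the right at each age, with circles for +/+, squares for +/-, triangles for -/- and bars for the mean of 5 libraries. pi-17-qC-935, pi-8-qC5-8200, pi-2-qF1-2536, pi-1700016M24Rik and pi-11-qE1-3997 rise at 16 dpp in non-mutants with no overlap with mutants, pi-17-qA3.3-27363 overlaps, and pi-15-qE1-3710 and pi-Mcart1 follow neither age nor genotype in this way.

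The level left in mutants was graded over the loci. For the 52 loci with a non-mutant mean of at least 0.5 TPM at 16 dpp, the median mutant mean was 10.4% of the non-mutant mean. It was at most 1% at 14 loci, over 1% and up to 5% at 7, over 5% and up to 20% at 12, over 20% and up to 50% at 12, and above 50% at 7. The loci were chosen by the non-mutant mean, by which the mutant mean is divided here, so these percentages may be biased low. At the 14 loci with at most 1% no mutant library was above 0.02 TPM, near the last decimal given. At 14 of the 52 the groups overlapped, a count for which no share over all rows of like level was computed. pi-4-qB3-277 stood in the middle of this scale: it was 1.64 and 1.95 TPM in the +/+, 1.71, 3.31 and 5.13 TPM in the +/- and 0.41 to 0.83 TPM in the -/- libraries, with no overlap and a mutant mean of 21.4% (log2 difference -1.16, SE 0.14, limma adjusted p = 5.69e-06). A further 5 loci called without a filter kept between 18.3% and 34.6% in mutants. These were pi-13-qA5-703, pi-8-qC5-2209, pi-6-qD1-2831, pi-2-qG3-1029 and pi-18-qE1-1295, with limma adjusted p of 6.04e-05, 4.32e-05, 7.32e-05, 0.000247 and 0.0104, and none of the 5 was called on the 16 dpp libraries alone or against the +/+ libraries alone. Their means in 12 dpp non-mutants ranged from 0.038 TPM at pi-2-qG3-1029 to 0.352 TPM at pi-18-qE1-1295, and each of them was above 0 in every one of those libraries.

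At other loci a difference at 16 dpp rested on few libraries or was not called. pi-10-qA3-143 was 4.05 and 0 TPM in the +/+, 3.97, 4.38 and 5.01 TPM in the +/- and 0, 0, 0, 1.84 and 0 TPM in the -/- libraries, so 1 non-mutant was at the level of most mutants and 1 mutant stood above the others. Its log2 difference of -1.63 (SE 0.39, limma adjusted p = 0.0102) was no longer called with litter as a fixed block (adjusted p = 0.0535), on the 16 dpp libraries alone or without +/- replicate 2 or 3. pi-13-qA3.1-213 was 1.52, 1.43, 0.66, 3.27 and 4.57 TPM in non-mutants and 0.44 to 0.94 TPM in mutants, with 1 non-mutant inside the mutant range. Its difference of -0.79 (SE 0.21, limma adjusted p = 0.0221) was lost against the +/+ libraries alone, without mutant replicate 3 and with pseudocount 0.1. pi-10-qA3-143 and pi-13-qA3.1-213 needed the 16 dpp non-mutants to reach 5 libraries above 1 TPM, the filter of these tests. In limma without that filter on the 16 dpp libraries alone, their adjusted p were 0.273 and 0.393, in the order given. pi-8-qA2-343, at 0.43, 0.52, 0, 2.76 and 4.90 TPM in non-mutants and listed at 0 in every mutant, had a limma adjusted p of 0.0151 without a filter. That call was lost without +/- replicate 2, against the +/+ libraries alone, with litter as a fixed block and on the 16 dpp libraries alone (adjusted p = 0.399). pi-6-qF3-3040 was 2.52 to 5.17 TPM in non-mutants and 1.45 to 3.05 TPM in mutants, with overlapping groups and a log2 difference of -0.51 (SE 0.15, limma adjusted p = 0.0687). pi-4-qD2.2-349 overlapped more widely, at 1.22 to 4.24 against 0.64 to 2.34 TPM (log2 difference -0.42, SE 0.21, limma adjusted p = 0.436).

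Highest of all in 16 dpp mutants was pi-15-qE1-3710, whose level varied from library to library within both genotypes at that age. At 16 dpp it was 11.1 and 10.4 TPM in the +/+, 0.70, 0.86 and 14.8 TPM in the +/- and 1.43, 18.6, 5.15, 15.9 and 17.96 TPM in the -/- libraries. Both groups thus held libraries near 1 TPM and libraries above 10 TPM, and the log2 difference was 0.75 (SE 0.69, limma adjusted p = 0.718). At 12 dpp only mutants were low, with 6.84 to 10.5 TPM in non-mutants and 8.38, 6.45, 0.37, 1.14 and 9.01 TPM in mutants. At 8 dpp both groups again reached 0, with 0 to 3.38 TPM in 8 dpp non-mutants and 0 to 4.91 TPM in 8 dpp mutants. This locus alone was 40.3% of the mean piRNA sum of 16 dpp mutants and 47.6% of that of 12 dpp non-mutants. From 8 to 12 dpp its log2 change in non-mutants was 1.90 (SE 0.69, limma adjusted p = 0.0335), a call that was lost without the filter, without litter 13 and without any 1 of 7 single libraries.

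The 12 to 16 dpp step was tested within each genotype. In non-mutants every 16 dpp library was above every 12 dpp library at 64 loci (2.51% of all rows) and no locus was lower in that sense (2.23% of all rows). In the fit without a filter 76 of 97 loci rose at this step (limma, 4.94% of all rows). In mutants 10 loci were separated upward (2.33% of all rows) and 0 downward (1.85% of all rows), and limma called 7 of 97 as risen (2.47% of all rows). The 7 were pi-8-qC5-8200, pi-11-qE1-3997, pi-4-qB3-277, pi-17-qA3.3-27363, pi-17-qA3.3-26735, pi-11-qE1-252 and pi-2-qG3-1029. For the first 2 of these the log2 changes that follow are from the fit with the filter. pi-8-qC5-8200 went from a mean of 0.078 to 0.834 TPM in mutants (log2 change 0.74, SE 0.21, limma adjusted p = 0.0199) and from 0.122 to 11.6 TPM in non-mutants (log2 change 3.34, SE 0.21). pi-11-qE1-3997 went from 0.020 to 0.710 TPM in mutants (log2 change 0.70, SE 0.19, limma adjusted p = 0.0114) and from 0.040 to 4.004 TPM in non-mutants (log2 change 2.18, SE 0.19). Without litter 13 the number called was 4, and without mutant 16 dpp replicate 5 it was 1.

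The difference between these steps was itself tested, as mutant minus non-mutant. It was negative and past the limma threshold at 48 of 97 loci and positive at 0 (0.835% of all rows were negative and called), and 31 loci were called without litter 13. For pi-17-qC-935 the steps differed by -3.57 on the log2 scale (SE 0.54, limma adjusted p = 0.000148), for pi-8-qC5-8200 by -2.59 (SE 0.30, limma adjusted p = 4.20e-06) and for pi-2-qF1-2536, without the filter, by -2.16 (SE 0.24, limma adjusted p = 7.32e-06). For pi-11-qE1-3997 they differed by -1.47 (SE 0.26, limma adjusted p = 0.00115). The steps of pi-17-qA3.3-27363 were not shown to differ (difference -0.58, SE 0.24, limma adjusted p = 0.495), nor were those of pi-6-qF3-3040 (difference -0.49, SE 0.22, limma adjusted p = 0.583). Except for pi-2-qF1-2536, the values given here for single loci are from the fit with the filter.

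Before 16 dpp the genotypes were not separated at any locus. At 12 dpp no locus had every non-mutant above every mutant (0.0916% of all rows) or the reverse (0.0626% of all rows), and the same held at 8 dpp (0.0488% and 0.0916% of all rows). In limma without a filter 0 loci and 0.0% of all rows were called at 12 dpp, where 1323 rows had an unadjusted p under 0.05, and 0 loci and 0.0% of all rows at 8 dpp, where 1434 did. With most loci near 0 TPM at these ages, a difference between the genotypes may not have been detectable.

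A few loci were already higher at 12 dpp than at 8 dpp. Of the loci, 7 were separated upward at this step in non-mutants (4.41% of all rows) and 3 in mutants (3.06% of all rows), shares near those of all rows. In limma without a filter 1 locus rose in non-mutants (7.66% of all rows) and 2 in mutants (6.35% of all rows). pi-6-qF3-3040 was the locus that rose in both, from 0.23 to 0.77 TPM at 8 dpp to 1.08 to 1.55 TPM at 12 dpp in non-mutants (log2 change 0.55, SE 0.15, limma adjusted p = 0.0136) and from 0.42 to 1.08 to 1.09 to 1.5 TPM in mutants (log2 change 0.47, SE 0.15, limma adjusted p = 0.0438). The mutant call was lost without litter 13. Its neighbour in band 6 qF3, pi-6-qF3-1063, rose in mutants from 0.01 to 0.09 TPM to 0.10 to 0.21 TPM (log2 change 0.10, SE 0.03, limma adjusted p = 0.0117). Both loci were above 0 in all 30 libraries.

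Of the 25 loci above 0 in all 30 libraries, 18 had a mean in 16 dpp non-mutants of at least 2 times their 8 and 12 dpp means. The other pattern among them was a level that changed little: at 5 loci all 6 group means lay within 2 times each other. These were pi-2-qE5-4, pi-13-qA3.1-355, pi-Mcart1, pi-March08 and pi-Eif2c2. pi-2-qE5-4 had means of 0.876, 0.904 and 0.548 TPM in non-mutants and 1.07, 0.920 and 0.796 TPM in mutants at 8, 12 and 16 dpp, with overlapping ranges of 0.39 to 0.86 and 0.33 to 1.07 TPM at 16 dpp.

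Of the 5 loci named after genes, 3 were among the flat ones, pi-D730040F13Rik had group means of 0.084 to 0.218 TPM with no call at 16 dpp, and pi-1700016M24Rik followed the 16 dpp pattern. By current names the genes are Slc25a51 (pi-Mcart1), a mitochondrial NAD+ carrier, Ago2 (pi-Eif2c2), the Argonaute that cuts RNA targets, the membrane-bound ubiquitin ligase gene Marchf8 (pi-March08), Tmem245 (pi-D730040F13Rik) and Mroh4 (pi-1700016M24Rik), matched through RefSeq annotation of GRCm38.p6. pi-Mcart1 had means of 0.568 TPM in 16 dpp non-mutants and 0.694 TPM in mutants (log2 difference 0.12, SE 0.11, limma adjusted p = 0.827). The rows pi-March08, pi-D730040F13Rik and pi-Eif2c2 had 0.092, 0.084 and 0.058 TPM in 16 dpp non-mutants, while the genes Marchf8, Tmem245 and Ago2 had 57.0, 12.7 and 11.01 TPM. The gene Slc25a51 had 28.6 TPM. Each of these 4 piRNA rows was thus far below the gene of its name, and none was called at 16 dpp.

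Mroh4, on chromosome 15 from 74606026 to 74636804 (GRCm38), was also lower in 16 dpp mutants. It was 39.2 and 41.5 TPM in the +/+, 22.5, 93.3 and 138 TPM in the +/- and 0.52 to 1.37 TPM in the -/- libraries at 16 dpp, with a log2 difference of -4.78 (SE 0.30, limma adjusted p = 8.72e-12). The pi-1700016M24Rik row was 2.20% of the 2 rows' sum in 16 dpp non-mutants and 6.62% in 16 dpp mutants, where Mroh4 was lower by a larger factor than the piRNA row. Where a piRNA locus overlaps a gene, the reads of both may be divided between their rows by the estimation, and whether strand was used is not given in the sources used here, so a value of a gene-named row cannot be taken apart from its gene.

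Loci in the same band did not all share a pattern. These bands were chosen after their values were seen. In band qC1 of chromosome 10 all 5 loci had a mutant mean of 6.67% to 14.1% of the non-mutant mean at 16 dpp. Of these, pi-10-qC1-1527 (0.006 against 0.09 TPM) and pi-10-qC1-875 (0.01 against 0.132 TPM) had mutant means near the last decimal given. In band qF3 of chromosome 6, by contrast, pi-6-qF3-28913 and pi-6-qF3-8009 were listed at 0 in every 16 dpp mutant, while pi-6-qF3-3040 and pi-6-qF3-1063 kept 61.6% and 85.7%. In band qE1 of chromosome 11 the mutant means were 0.456%, 17.7% and 51.8% for pi-11-qE1-9443, pi-11-qE1-3997 and pi-11-qE1-252. Band qE1 of chromosome 15 likewise held pi-15-qE1-3710, which was not lower in mutants, beside pi-15-qE1-8387 at 13.1% and pi-15-qE1-1119 at 66.5%.

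The 3 loci of band qA3.3 on chromosome 17 show this within 1 level range. pi-17-qA3.3-27363 was 1.27 and 0.99 TPM in the +/+, 2.01, 1.31 and 3.16 TPM in the +/- and 0.52, 1.08, 0.24, 0.35 and 1.67 TPM in the -/- libraries. pi-17-qA3.3-26735 was 0.80, 0.82, 1.52, 0.99 and 2.55 TPM in non-mutants and 0.53, 0.63, 0.19, 0.33 and 0.84 TPM in mutants. These 2 loci overlapped between genotypes and were ordered alike over the libraries, with +/- replicate 3 highest and +/- replicate 1 second in non-mutants and replicate 5 highest and replicate 3 lowest in mutants. pi-17-qA3.3-352 did not overlap, at 1.57, 1.44, 0.66, 2.96 and 4 TPM against 0.06 to 0.48 TPM, and had its lowest non-mutant value in +/- replicate 1. The call at pi-17-qA3.3-27363 (log2 difference -0.64, SE 0.17, limma adjusted p = 0.0293) was lost with litter as a fixed block (adjusted p = 0.0594), on the 16 dpp libraries alone, against the +/+ libraries alone and when any 1 of 5 libraries of that age was left out (+/- replicates 1 and 3, mutant replicates 1, 3 and 4). This locus needed the 16 dpp non-mutants to reach 5 libraries above 1 TPM, the filter of that test. In limma without that filter on the 16 dpp libraries alone, its adjusted p was 0.446.

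Heterozygous and wild-type animals were also compared, with age as a factor. In limma without a filter 0 of 97 loci and 0.0% of all rows were called between +/- and +/+, and 3113 rows had an unadjusted p under 0.05. The +/- libraries held both the lowest and the 2 highest piRNA sums of the 16 dpp non-mutants, so their range enclosed that of the +/+ libraries.

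Of 29 genes of the piRNA pathway, all of which passed the filter, 9 fell and 0 rose at 16 dpp in mutants, where 2.75% of all rows that passed fell (limma). At 12 and 8 dpp 0 were called, as were 0.0% of all rows, and 225 and 417 of all rows had an unadjusted p under 0.05. Their median log2 difference at 16 dpp was -0.30 against 0.07 over all rows that passed. Among the PIWI proteins Piwil1 was 44.4 and 45.4 TPM in the +/+, 18.9, 109 and 135 TPM in the +/- and 2.39 to 3.89 TPM in the -/- libraries, with no overlap and a log2 difference of -3.76 (SE 0.31, limma adjusted p = 1.47e-09). Piwil2, which is already made in spermatogonia, differed by -0.47 (SE 0.18, limma adjusted p = 0.213). Of the Tudor domain proteins that organise the germ granules in which piRNAs are processed, Tdrd6 fell by 2.99 (SE 0.37, limma adjusted p = 1.77e-06), Tdrd5 by 1.25 (SE 0.19, limma adjusted p = 2.98e-05), Tdrd1 by 0.77 (SE 0.18, limma adjusted p = 0.0112) and Tdrd12 by 0.53 (SE 0.15, limma adjusted p = 0.0385) on the log2 scale. The nuclease gene Pld6 fell by 0.90 (SE 0.20, limma adjusted p = 0.00620), and the helicase genes Ddx25 and Ddx4 fell by 0.79 and 0.61 (limma adjusted p = 0.0179 and 0.0276). Mov10l1, whose helicase feeds precursors to the nuclease, differed by -0.15 (SE 0.18, limma adjusted p = 0.784).

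The factors that drive precursor transcription were examined in turn. Mybl1 was 32.6 and 26.2 TPM in the +/+, 28.9, 33.8 and 33.8 TPM in the +/- and 25.1, 30.5, 24.99, 28.3 and 24.1 TPM in the -/- libraries at 16 dpp. Its groups overlapped, and the log2 difference was -0.22 (SE 0.16, limma adjusted p = 0.649). Mybl1 rose from 12 to 16 dpp in non-mutants (log2 change 0.69, SE 0.16, limma adjusted p = 0.00267) and in mutants (log2 change 0.57, SE 0.16, limma adjusted p = 0.0194). Btbd18 was 9.36 to 18.2 TPM in non-mutants and 12.8 to 20.2 TPM in mutants (log2 difference 0.15, SE 0.20, limma adjusted p = 0.824). Tcfl5 was 54.0, 63.2, 56.0, 86.7 and 101 TPM in non-mutants and 43.2, 49.1, 35.6, 43.7 and 44.5 TPM in mutants, with no overlap and a fall of 0.69 on the log2 scale (SE 0.19, limma adjusted p = 0.0331). From 8 to 12 dpp, a step at which few loci changed, 20 of the 29 pathway genes rose in non-mutants (20.3% of all rows that passed) and 18 in mutants (17.5%). From 12 to 16 dpp 18 rose in non-mutants (8.88%) and 1, Mybl1, in mutants (6.21%). These later steps differed between genotypes at 3 of the 29 (limma, 1.26% of all rows that passed), Piwil1 by -3.69, Tdrd6 by -2.60 and Tdrd5 by -1.17 on the log2 scale.

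**Figure D5:**
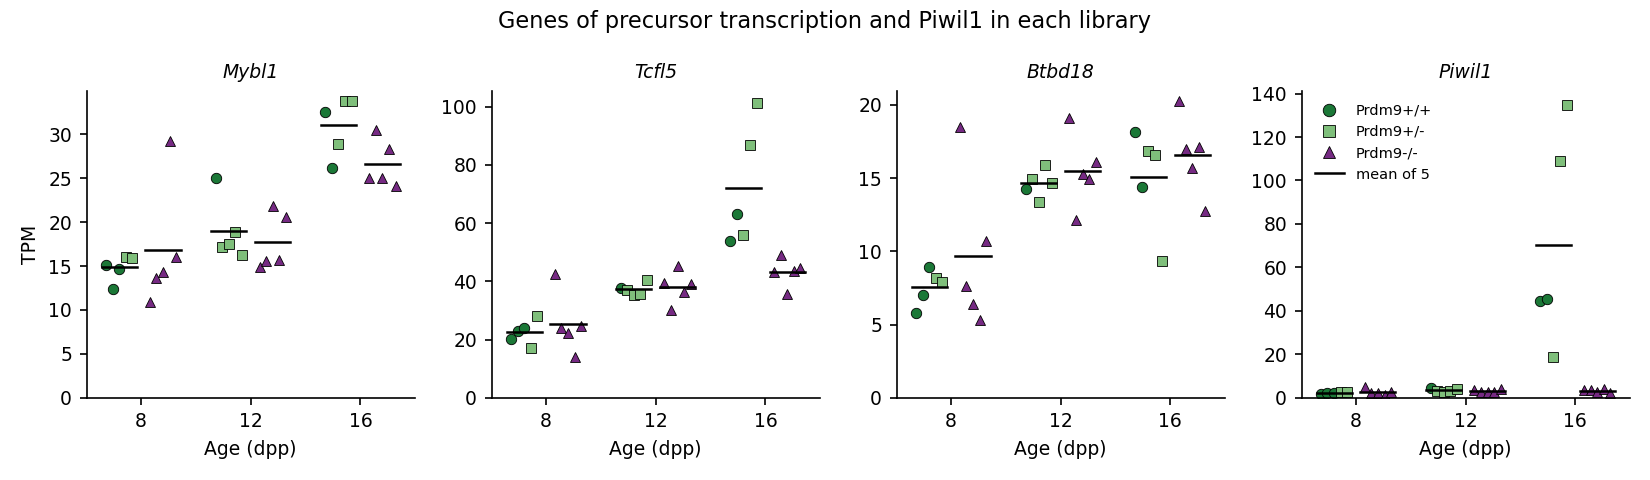
Level in TPM (linear vertical axes, which differ between panels) of Mybl1, Tcfl5, Btbd18 and Piwil1 in each library at 8, 12 and 16 dpp, non-mutants to the left and mutants to the right at each age, with circles for +/+, squares for +/-, triangles for -/- and bars for the mean of 5 libraries. At 16 dpp the genotypes overlap for Mybl1 and Btbd18 and do not overlap for Tcfl5 and for Piwil1, which was 18.9 to 135 TPM in non-mutants and 2.39 to 3.89 TPM in mutants.

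Markers of pachytene spermatocytes moved with the piRNA loci. Of 8 such markers, a list that includes Ldhc and Piwil1, 7 passed the filter and all 7 fell at 16 dpp (limma, 2.75% of all rows that passed fell). The filter let Spag6l pass only with the 16 dpp non-mutants, where it was high (4.39 to 36.77 TPM, against 0.09 to 0.98 TPM in 16 dpp mutants). Ldhc, Piwil1 and Adam2 were above 1 TPM in every 16 dpp mutant and did not need that group. The summed level of the list was 154 to 1302 TPM in non-mutants and 41.9 to 63.1 TPM in mutants. The 7 markers of leptotene and zygotene spermatocytes (Sycp1, Sycp3, Dmc1 and others) summed to 819 to 1227 TPM in non-mutants and 718 to 1175 TPM in mutants, and 0 of them were called. The 7 markers of spermatogonia also had 0 calls. Of the 6 markers of round spermatids, the next stage after meiosis, Prm1 and Prm2 were at 0 in every 16 dpp non-mutant library and Tnp1 was at most 1.63 TPM. All 6 summed to 7.33 to 9.80 TPM in 16 dpp non-mutants and 6.58 to 12.6 TPM in 16 dpp mutants. Of the 3 that passed the filter 0 were called between the genotypes at 16 dpp. From 12 to 16 dpp 1 of the 3 rose in non-mutants (limma, 8.88% of all rows that passed) and 1 in mutants (6.21%). Markers of other somatic cells had higher means in 16 dpp mutants with overlapping ranges and 0 calls: the 4 erythroid markers summed to 85.0 to 433 TPM in non-mutants and 174 to 704 TPM in mutants, the 5 Leydig cell markers to 93.5 to 353 and 155 to 468 TPM, and the 4 macrophage markers to 30.1 to 64.3 and 50.7 to 82.3 TPM. The part of the pachytene and somatic markers' differences in the loci's difference was not tested.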

How the data were processed

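The authors deposited 1 table of TPM values with 2 decimals for 30 libraries of polyadenylated RNA, 1 library per animal, of which the 105 piRNA rows were analysed. Per the submitters' processing notes the tools were Bowtie 1.0.0 and RSEM 1.2.8 and the build GRCm38 (mm10). How reads shared by overlapping or repeated rows were divided, and whether strand was used, is not given in the sources used here. TPM keeps no read depth, so no counting error is given. The rows used are part of a table whose remainder was not analysed here.

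Rows above 1 TPM in at least 5 libraries (20021), or with no filter all rows above 0 somewhere (46579), were taken as log2(TPM + 1) and fitted with limma 3.58.1 (R 4.3.3, trended prior) with 6 groups of age by mutant or non-mutant. Benjamini-Hochberg adjustment ran over all rows of a fit, with a threshold of 0.05, and the procedure was tested on simulated data. Non-mutants pool +/+ and +/-. The piRNA loci and the gene lists were chosen with earlier results of these data known. Loci named are those that passed the filter, the next 10 by mean level, 10 more by adjusted p in the fit without a filter, and the gene-named ones whose gene averaged at least 1 TPM.

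Pairing was checked on deviations from group means. The 17 same-litter pairs correlated at 0.063 to 0.39 (median 0.22, 13 over 0.1) and pairs from other litters at a median of -0.083. The litter is given in the table's header, so litter mates were taken as paired. The alternatives were litter or label number as a block, other scalings, pseudocount 0.1, 1 age or 1 control genotype alone, and leaving out each library or litter 13.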

Additional observations from a re-analysis of the deposited data

Results flagged for a closer look

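In 4 of 52 group ranges of the loci that passed the filter 1 library stood far from the other 4 of its group. Chance alone flags some such ranges, at a rate not determined where most values are 0. For pi-10-qA3-143 the flagged libraries were the mutant 12 dpp replicate 5, at 1.53 TPM, and the following at 16 dpp. The +/+ replicate 2 was at 0.0 TPM among non-mutants at 3.97 to 5.01 TPM, and the mutant replicate 4 was at 1.84 TPM among mutants at 0 TPM. For pi-2-qE5-4 it was the mutant 12 dpp replicate 1, at 0.59 TPM.

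The change from 12 to 16 dpp differed between mutants and non-mutants by limma's test of that difference at 6 loci that passed the filter, of which pi-2-qF1-2536, pi-1700016M24Rik and pi-4-qB3-277 passed it only through the 16 dpp non-mutants. Without the filter their limma adjusted p were 7.32e-06, 5.35e-06 and 0.00568. The others also needed the 16 dpp non-mutants to reach 5 libraries above 1 TPM. On the log2 scale, mutant minus non-mutant, the steps differed by -3.57 at pi-17-qC-935, -2.59 at pi-8-qC5-8200, -2.16 at pi-2-qF1-2536, -1.47 at pi-11-qE1-3997, -1.17 at pi-1700016M24Rik and -1.05 at pi-4-qB3-277. At pi-4-qB3-277 and pi-11-qE1-3997 the test was no longer past the threshold with a pseudocount of 0.1. The age step rests on other animals at each age, and the 12 dpp groups include litter 13, whose Prdm9 levels went against its labels.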

How the results depend on the processing

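Of 91 calls at named loci 53 held in every alternative run set against them (at most 45 per call) and 0 reversed. For 16 dpp calls from the fit with the filter, those runs left out the 16 dpp libraries alone without a filter. In that run pi-17-qC-935 and pi-11-qE1-3997, counted as held at 16 dpp, had limma adjusted p of 0.0513 and 0.0781. The run without a filter and with litter as a fixed block, in which 0 loci fell, was left out too. Read depth is unknown, so counting error at low TPM could not be weighed. The cause of the differences below was not tested unless fewer samples were used.

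At 16 dpp the rows called between genotypes numbered 653. They were 1181 without a filter, 1022 without a filter and with pseudocount 0.1, 1103 with litter as a random block, 752 with litter as a fixed replicate block, 159 with the label number as a replicate block, 405 on that age alone, 194 against +/+ alone, 191 without the 2 +/- libraries of highest piRNA sum, and 366 to 781 leaving out 1 library. At 12 dpp (0 called) each of 4 settings called 1: no filter with pseudocount 0.1, without litter 13, +/+ alone and that age alone. At 8 dpp (0 called) +/+ alone gave 4. The 12 to 16 dpp step in non-mutants (4372) gave 1808 without those 2 libraries, 2815 with +/- alone and 2886 to 5144 leaving out 1. The 8 to 12 dpp step in non-mutants (6497) gave 3501 with +/- alone. The difference of the steps (270) gave 416 without a filter, 168 with pseudocount 0.1, 447 with the random litter block, 79 without those 2 libraries and 121 to 360 leaving out 1. The +/- against +/+ comparison (0) gave 0 to 3 leaving out 1.

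For piRNA loci without a filter, the 67 at 16 dpp became 25 against +/+ alone, 10 on that age alone, and 0 with litter or with the label number as a fixed replicate block. The label numbers pair nothing: 15 same-number pairs had a median correlation of 0.067. The 1 locus of the 8 to 12 dpp step in non-mutants became 3 with pseudocount 0.1 and 3 without the 2 high libraries (0 to 2 leaving out 1). The 7 of the 12 to 16 dpp step in mutants became 11, 13 and, without litter 13, 4 (1 to 9 leaving out 1). The 2 of the 8 to 12 dpp step in mutants became 4 with pseudocount 0.1 and 1 without litter 13 (0 to 2). The 48 for the difference of the steps became 31 without litter 13. The 10 loci separated between 12 and 16 dpp in mutants were 10 to 16 leaving out 1, which cannot lower that count and so shows nothing of its stability. With a group mean of at least 0.1, 0.5 or 1 TPM the loci detected were 12, 4 and 1 in 8 dpp non-mutants, 16, 5 and 2 in 8 dpp mutants, 29, 6 and 3 in 12 dpp non-mutants, 22, 6 and 3 in 12 dpp mutants, 83, 52 and 28 in 16 dpp non-mutants, and 34, 13 and 4 in 16 dpp mutants.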
